A study of Mus musculus with 13 samples.

Results

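MALAT1 and NEAT1 are long noncoding RNAs that stay in the nucleus. They are described here through 3 rows of the deposited transcript tables, chosen by transcript ID. They are MALAT1 (ENST00000534336, 8708 bases), the long form of NEAT1 (ENST00000501122, 22743 bases) and the short form of NEAT1 (ENST00000499732, 3441 bases). These are 3 of 244939 transcripts, and all 3 IDs were found in each of the 13 tables. The IDs carry no gene name in the tables, and the names used here were given with the IDs.

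The libraries came from tumours grown from MDA-MB-231, an established line of human breast cancer cells of the triple-negative type, injected into a mammary gland of NSG females aged 12 to 13 weeks. NSG mice lack mature lymphocytes, although the labels give the genotype as immunocompetent. Vehicle, 40% DMSO with 60% polyethylene glycol, was given to 8 mice, and OCA (obeticholic acid, an activator of the bile acid receptor FXR) at 30 mg per kg to 7 mice; RNA was sequenced from 7 and 6 of them. Dosing was by gavage every day from the time the tumours measured 80 to 150 mm3, and the series text gives 14 days of growth. The labels number each tumour separately, and these were taken as separate animals. The comparison of OCA with vehicle asks whether dosing with an FXR activator was accompanied by a change in tumour RNA. All tumours grew from a single cell line, and mouse RNA was not separated from human RNA here. The cell line's and the host's defining markers could not be checked, because no human gene names were paired with the IDs. In bulk tumours, fewer cells that hold a transcript and less of it per cell cannot be told apart.

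MALAT1 is found in nuclear speckles, bodies rich in splicing factors, and is among the most abundant long noncoding RNAs of many cell types. NEAT1 is made from a neighbouring gene and is the scaffold of paraspeckles, nuclear bodies that hold RNA-binding proteins. Its long form is required to build paraspeckles, while the short form, which shares the long form's 5′ part, is not sufficient for them. The short form ends in a poly(A) tail, whereas MALAT1 and the long form end in a triple helix without a conventional tail. The labels call the libraries mRNA-seq and do not say how mRNA was selected. Sequences of the human transcripts were not used here.

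The libraries held 34015674 to 50596490 estimated reads. The 3 libraries under 40000000 reads were vehicle replicates 2, 3 and 5. Vehicle replicates 1 and 4 and OCA replicate 2 stood apart from the other libraries on the first principal component of all transcripts. The label numbers form a lower and an upper series, and what they record is not given. The lower series holds 3 vehicle and 4 OCA libraries and the upper series 4 and 2. All 3 libraries under 40000000 reads are in the upper series, so subsets by depth and by series are not separate checks.

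The levels of the 3 rows differed more from each other than between the groups. Per length, MALAT1 was the highest, at 5.42 to 12.8 TPM, the deposited abundance after division by length. The short form of NEAT1 was listed at 0 to 7.99 TPM and the long form at 0.541 to 1.19 TPM. MALAT1 exceeded the long form in all 13 libraries and the short form in 12 of 13. The exception was vehicle replicate 6, with 5.49 TPM of MALAT1 and 7.79 TPM of the short form. The short form exceeded the long form in 10 of 13 libraries per length. In the 3 libraries that went against this order, the estimate for the short form was 0 reads. By reads the order of the NEAT1 forms was different, because the long form is far longer. The long form held 506 to 1226 estimated reads and exceeded the short form in 10 of 13 libraries, while MALAT1 held 1823 to 5186.

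MALAT1, the speckle RNA, was higher on average in OCA tumours, but the difference did not pass the threshold across all transcripts. In vehicle tumours it measured 67.0, 64.5, 48.8, 58.2, 64.3, 49.8 and 79.3 CPM (replicates 1 to 7), where CPM is a read count scaled to the library's size with TMM-scaled library sizes. In OCA tumours it measured 71.5, 73.9, 107, 110.003, 76.7 and 96.1 CPM (replicates 1 to 6). OCA replicates 3, 4 and 6 lay above every vehicle library (3 of 6), and 6 of 7 vehicle libraries lay below every OCA library. The groups overlapped through vehicle replicate 7 alone, which exceeded OCA replicates 1, 2 and 5. The vehicle mean was 61.7 ± 10.6 CPM (SD, n = 7). The OCA mean was 89.1 ± 17.2 CPM (SD, n = 6), which is 1.45 times as high. The log2 fold change was 0.53 (SE 0.14, 95% interval 0.23 to 0.83), with an unadjusted edgeR p of 0.00211 and an adjusted p of 1. By unadjusted p MALAT1 stood at place 57 of the 74973 transcripts tested. Of these transcripts 0 (0%) passed the adjusted threshold of 0.05 by edgeR's quasi-likelihood test, and 2078 (2.77%) had an unadjusted p under 0.05, of which 1026 (1.37% of those tested) were higher in OCA. The groups did not overlap for 92 transcripts (0.123%), 59 of them higher in OCA (0.0787%), and MALAT1 was not one of these. With no filter on low counts, DESeq2 called 410 of the 109259 transcripts to which it gave an adjusted p (0.375%). After edgeR's filter it called 12 of 19736 such transcripts (0.0608%). MALAT1 was not among the calls, at DESeq2 adjusted p values of 0.106 and 0.133.

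The MALAT1 estimate was similar in both label series. Within the lower series the log2 fold change was 0.55 with an SE of 0.23 (edgeR, adjusted p = 1) and within the upper series 0.48 with an SE of 0.18 (edgeR, adjusted p = 1). With the series as a covariate it was 0.52 with an SE of 0.15 (edgeR, adjusted p = 1). Leaving out each library in turn gave 0.46, without OCA replicate 4, to 0.60, without vehicle replicate 7, and the adjusted edgeR p was 1 in each of these fits. Without the 3 libraries that stood apart on the first component it was 0.59 with an SE of 0.17 (edgeR, adjusted p = 1).

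**Figure D1:**
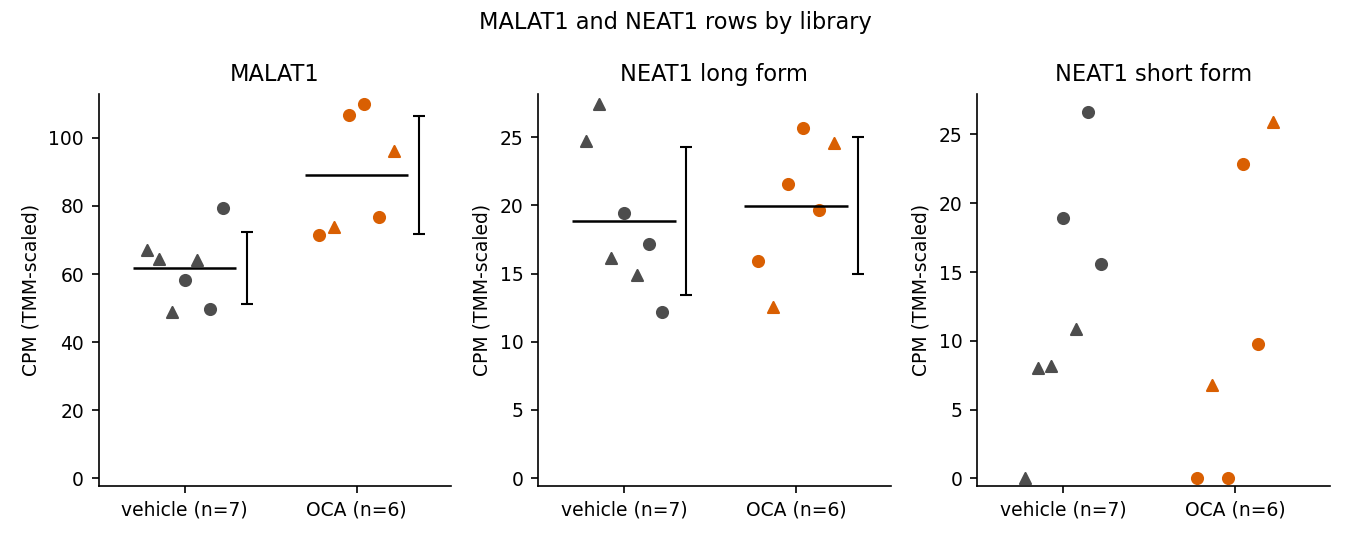
CPM (TMM-scaled) of MALAT1, the long form and the short form of NEAT1 in each library, with vehicle in grey and OCA in orange, circles for the lower and triangles for the upper label series. Bars are means with SD beside them for the first pair of panels. In all, 3 of 6 OCA libraries exceed all vehicle libraries for MALAT1, while the groups overlap throughout for both NEAT1 forms.

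The long form of NEAT1, the paraspeckle scaffold, showed no difference beyond the spread between libraries. In vehicle tumours it measured 24.7, 27.4, 16.2, 19.4, 14.9, 17.2 and 12.2 CPM (replicates 1 to 7), and in OCA tumours 15.9, 12.6, 21.5, 25.7, 19.6 and 24.6 CPM (replicates 1 to 6). Vehicle replicate 2 was the highest of all 13 libraries and vehicle replicate 7 the lowest, so the vehicle range enclosed the OCA range. The vehicle mean was 18.9 ± 5.45 CPM (SD, n = 7), and the OCA mean was 19.99 ± 5.04 CPM (SD, n = 6). The log2 fold change was 0.08 (SE 0.21, 95% interval -0.37 to 0.54, edgeR adjusted p = 1). This interval reaches up to the value estimated for MALAT1, and the difference between the 2 log2 fold changes was not tested. The direction was not stable, with a log2 fold change of 0.35 in the lower label series and -0.16 in the upper series (edgeR, adjusted p = 1 in each). Within-group variation of the long form was 28.7% of its level as edgeR's fitted coefficient of variation. The median was 23.3% over the 9971 transcripts within 2-fold of its mean CPM. For MALAT1 the fitted coefficient was 19.6%, against a median of 17.1% over 4263 transcripts of like level.

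The short form of NEAT1 varied from 0 to 26.6 CPM in vehicle and from 0 to 25.9 CPM in OCA tumours. It measured 0, 8.03, 8.15, 18.9, 10.9, 26.6 and 15.6 CPM in vehicle replicates 1 to 7, and 0, 6.77, 0, 22.8, 9.74 and 25.9 CPM in OCA replicates 1 to 6. Vehicle replicate 1 and OCA replicates 1 and 3 were listed at 0, in libraries of 47461177 to 49844746 reads that were not shallow. A count of 0 allows up to 3 reads, or at most 0.0666 CPM in these libraries, and covers counting error only. The log2 fold change of -0.21 had a standard error of 1.25 (edgeR, adjusted p = 1), so these data set no useful limit on a difference in this row. Its fitted coefficient of variation was 171%, larger than that of 98.6% of the 12249 transcripts of like level. OCA was higher in the upper label series (log2 fold change 1.28) and lower in the lower series (-1.32), with an edgeR adjusted p of 1 in each.

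Both NEAT1 forms together gave a level that does not depend on how reads were divided between these 2 rows. The sum was 15.9 to 50.4 CPM in OCA tumours (mean 30.9 ± 15.1, SD, n = 6) and 24.3 to 43.9 CPM in vehicle tumours (mean 31.5 ± 7.75, SD, n = 7). OCA libraries held both the lowest and the highest sums, and the spread was not tested. The mean log2 difference, OCA minus vehicle, was -0.13 (exact permutation test, two-sided, p = 0.659, adjusted p = 0.814 over 3 single-value measures). The ratio of the long to the short form per length could be formed in 10 libraries, 6 vehicle and 4 OCA, since 3 had an estimate of 0 reads for the short form. It was 0.0916 to 0.485 in vehicle and 0.135 to 0.286 in OCA tumours, so the OCA values lay inside the vehicle range. The mean difference of its log2 was 0.12 (exact permutation p = 0.814, adjusted p = 0.814), at 0.91 within the lower and -0.66 within the upper label series, where 0.1 is the smallest exact p that these libraries allow. Without the 3 libraries that stood apart it was -0.078.

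Some rows near the members in the deposited table held many more reads than the members did, which bounds what the 3 rows can say about their genes. Salmon divides reads that match several transcripts among them by a statistical model, and a row's value is its estimated part. There are 2 rows between the short and the long form of NEAT1, and their gene is not named in the files. One of them, ENST00000685861 (3732 bases), held 7727 to 22746 estimated reads, more than both listed forms together in all 13 libraries. The other, ENST00000687132 (3736 bases), held 205 to 3173 estimated reads, with a log2 fold change of 0.28 (edgeR, SE 0.64). The listed forms took 3.92% to 10.9% of the reads on these 4 adjacent rows, and the long form alone 2.91% to 7.92%. These rows were chosen after their values were seen, and row order was not used to name a gene. Whether they belong to NEAT1 cannot be told from the files, so the levels given here are those of the listed rows and may be a small part of the gene's reads. In vehicle tumours ENST00000685861 had a mean of 300.1 ± 57.5 CPM (SD, n = 7), and in OCA tumours of 404 ± 88.3 CPM (SD, n = 6). Its log2 fold change was 0.43 with an SE of 0.16 (edgeR, adjusted p = 1). For the 4 rows together the mean log2 difference was 0.36 (exact permutation p = 0.0973, adjusted p = 0.146). For the 2 listed forms it was -0.13 (exact permutation p = 0.659), a value whose sign is not established.

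A like case was found 3 rows from MALAT1. ENST00000619449 (5340 bases, not named in the files) held 12030 to 25857 estimated reads, and the MALAT1 row took 11.9% to 17.5% of the reads on this pair of rows. The row of ENST00000619449 was chosen after its values were seen, and the rows between it and MALAT1 are not part of the pair. Whether this row belongs to MALAT1 cannot be told from the files either, and the MALAT1 levels given here are those of the listed row. In vehicle tumours its mean was 377 ± 39.7 CPM (SD, n = 7), and in OCA tumours 459 ± 83.9 CPM (SD, n = 6). The log2 fold change was 0.28 with an SE of 0.11 (edgeR, adjusted p = 1). OCA replicates 3, 4 and 6 were the highest libraries in this row too, at 531, 548 and 523 CPM. Summed with the MALAT1 row, the log2 fold change was 0.32 with an SE of 0.11 (edgeR, adjusted p = 1), against 0.53 for the MALAT1 row alone. The sources used here do not say whether counting used the strand, so reads of transcripts antisense to either gene could not be told apart.

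**Figure D2:**
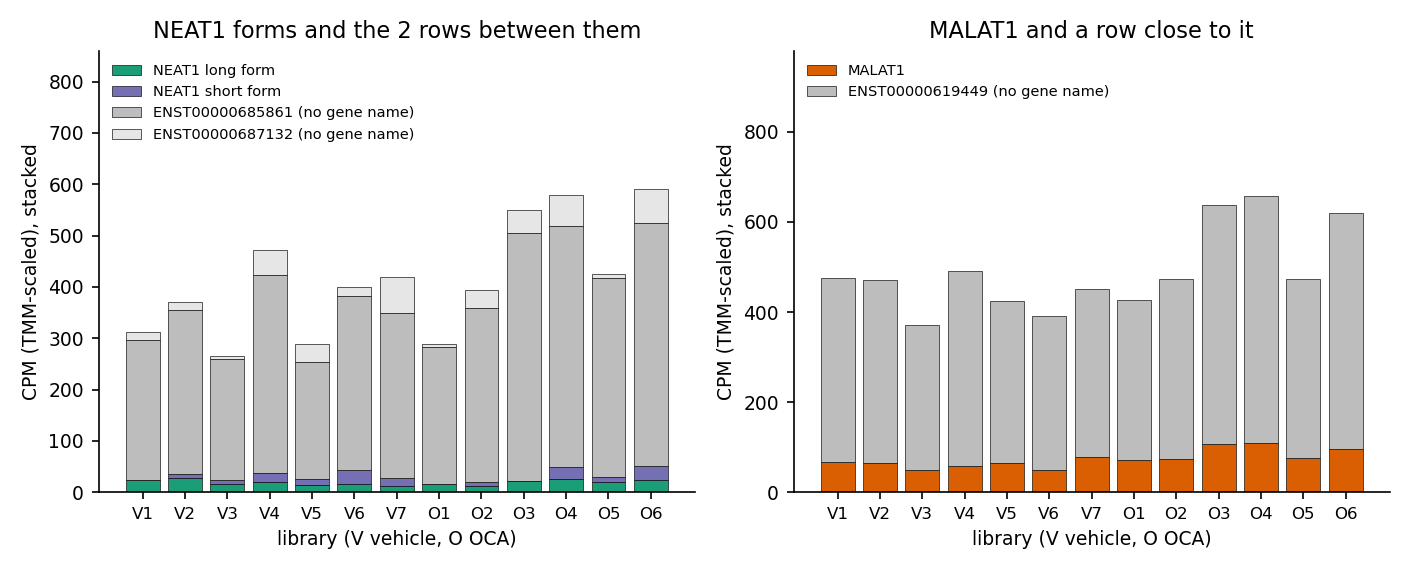
CPM (TMM-scaled) per library, stacked over the 4 adjacent rows that run from the short to the long form of NEAT1 (left) and over MALAT1 with a row 3 places from it (right). The grey parts, which carry no gene name, are larger than the coloured members in all 13 libraries.

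The share of reads on long transcripts, those of 4000 bases or more, was set beside the members in each library. MALAT1 and the long form of NEAT1 are 2 of the 22579 long transcripts, so the 3 members were left out of the share. The share was 26.4, 26.8, 25.8, 26.4, 26.3, 27.0 and 27.6% in vehicle replicates 1 to 7 and 28.5, 27.1, 29.2, 27.9, 27.5 and 27.95% in OCA replicates 1 to 6. As for MALAT1, vehicle replicate 7 was the only vehicle library that reached into the OCA range. The difference was 1.41 percentage points (exact permutation p = 0.0035, adjusted p = 0.0105 over 3 measures), but it did not pass within the lower label series (1.28 points, exact permutation, adjusted p = 0.15) or within the upper series (1.18 points, exact permutation, adjusted p = 0.2). Without the 3 vehicle libraries of lowest depth it was 1.18 points and did not pass either (exact permutation, adjusted p = 0.114). The limit of 4000 bases came from an earlier look at these data, which the p does not cover. The members themselves were a small part of this share. MALAT1 took 0.0174% to 0.0386% of the reads on long transcripts, and keeping the members in the share left the difference at 1.41 points. RNA integrity was given only as a number (RIN) above 6 for all libraries, with no value per library. A relation of the share to RNA integrity was therefore not tested.

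Across the 13 libraries MALAT1 rose with the share on long transcripts. Pearson's r of its log2 CPM with the share was 0.78 (permutation p = 0.00171, adjusted p = 0.0188 over 11 relations) and Spearman's rho was 0.81 (permutation p = 0.00112, adjusted p = 0.0123). Without the 2 libraries farthest from the median share r was 0.84 (permutation p = 0.00134, adjusted p = 0.0147). It did not pass without the 3 vehicle libraries of lowest depth (r = 0.70, permutation, adjusted p = 0.251), without the 3 libraries that stood apart (r = 0.78, permutation, adjusted p = 0.0834) or with scaling on long transcripts (r = 0.73, permutation, adjusted p = 0.0569). The groups differ in both measures, and within a group the relation did not pass the threshold. It was r = 0.59 within vehicle (n = 7, exact permutation p = 0.157, rho = 0.46) and r = 0.44 within OCA (n = 6, exact permutation p = 0.374, rho = 0.20). Within the lower label series r was 0.73 (n = 7, exact permutation p = 0.0619, adjusted p = 0.224) and within the upper series 0.95 (n = 6, exact permutation p = 0.00417, adjusted p = 0.0208). In the upper series the adjusted exact permutation p of rho (0.94) was 0.0833. Within a label series the adjustment was over only 5 relations, a smaller family than the 11 of the other settings above. OCA replicate 1 had the second highest share, 28.5%, with the lowest MALAT1 level of the OCA group. Without vehicle replicate 3 the adjusted permutation p of r was 0.0879, and without OCA replicate 3 it was 0.101, with r at 0.73 and 0.71.

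The NEAT1 forms showed no such relation past the threshold. For the long form r was 0.12 (permutation p = 0.686, adjusted p = 0.755, rho = 0.10) over 13 libraries, -0.30 within vehicle and 0.37 within OCA. For the short form r was 0.48 (permutation p = 0.162, adjusted p = 0.506, rho = 0.41) over the 10 libraries with reads on it, and 0.19 without the 2 libraries farthest from the median share. The log2 ratio of the long to the short form gave r = -0.33 with the share (permutation p = 0.353, adjusted p = 0.506). MALAT1 and the long form were weakly related over all libraries (r = 0.32, permutation p = 0.289, adjusted p = 0.506), at r = -0.10 within vehicle (n = 7, exact permutation p = 0.818) and 0.83 within OCA (n = 6, exact permutation p = 0.0417, adjusted p = 0.208 over 5 relations). MALAT1 against the short form gave r = 0.28 and the 2 NEAT1 forms against each other r = 0.31, with adjusted permutation p values of 0.532 and 0.506. Total reads gave r = 0.31 with MALAT1, -0.02 with the long form, 0.39 with the short form and -0.47 with the log2 ratio, and none of these 4 passed the threshold (adjusted permutation p = 0.506 to 0.938).

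**Figure D3:**
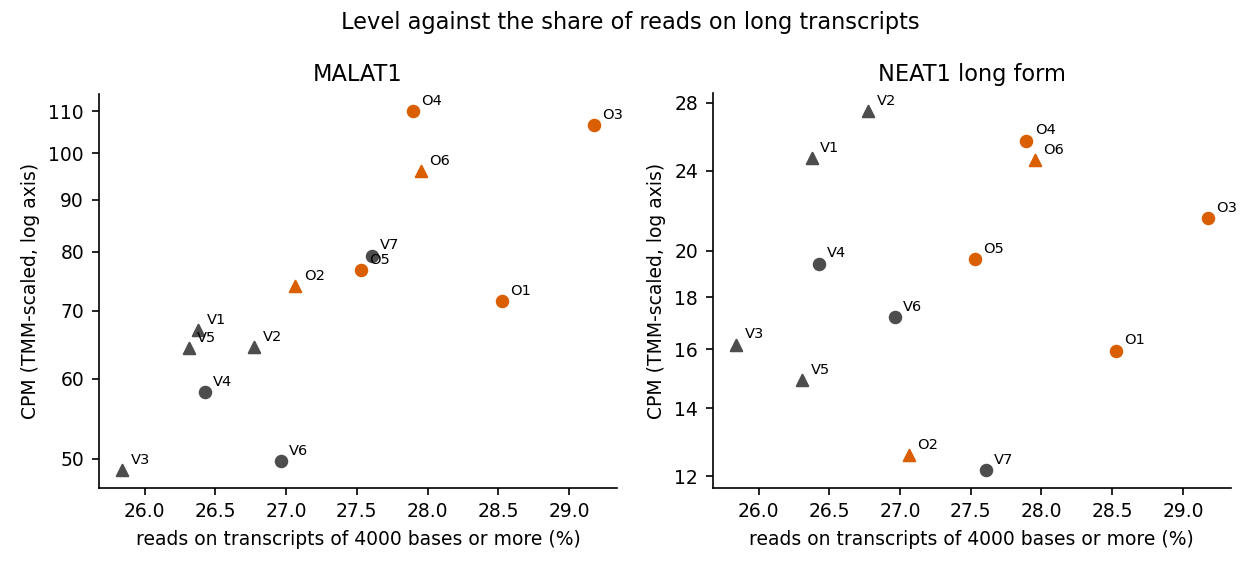
CPM (TMM-scaled, log axis) of MALAT1 and of the long form of NEAT1 against the percent of reads on long transcripts (at least 4000 bases, members left out), with 1 point per library (V vehicle in grey, O OCA in orange, circles lower and triangles upper label series). Over all 13 libraries MALAT1 rose with the share (r = 0.78). Within vehicle (r = 0.59) and within OCA (r = 0.44) its relation did not pass the threshold. The long form did not pass it over all libraries (r = 0.12).

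With the share as a covariate in the fit across all transcripts, the MALAT1 difference was smaller. Its log2 fold change was then 0.24 with an SE of 0.19 (edgeR, adjusted p = 1), against 0.53 without the covariate. The share differs between the groups, so in this fit the part of the difference that goes with the share and the part that goes with treatment cannot be told apart. The long form of NEAT1 gave 0.04 (SE 0.37) and the short form 0.07 (SE 1.99) in the same fit (edgeR, adjusted p = 1 for each). Scaling the libraries on long transcripts other than the members gave MALAT1 a log2 fold change of 0.46 with an SE of 0.13 (edgeR, adjusted p = 1). This scaling moved the median of all transcripts to -0.06 from 0.01, and MALAT1 stood 0.52 above that median under either scaling. A change of scaling moves all transcripts by nearly the same amount, so this distance was nearly fixed in advance.

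Set beside other long transcripts, MALAT1 lay toward the upper end. Among 4728 transcripts of 4000 bases or more with a mean of at least 10 CPM, members left out, the median log2 fold change was 0.05, and 291 (6.15%) had an unadjusted edgeR p under 0.05. Of these, 128 (2.71%) had a higher log2 fold change than MALAT1. For the long form of NEAT1, the longest member, 40.6% had a higher value. Among the 9979 shorter transcripts of like level the median was -0.05, and 542 (5.43%) had an unadjusted edgeR p under 0.05.

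**Figure D4:**
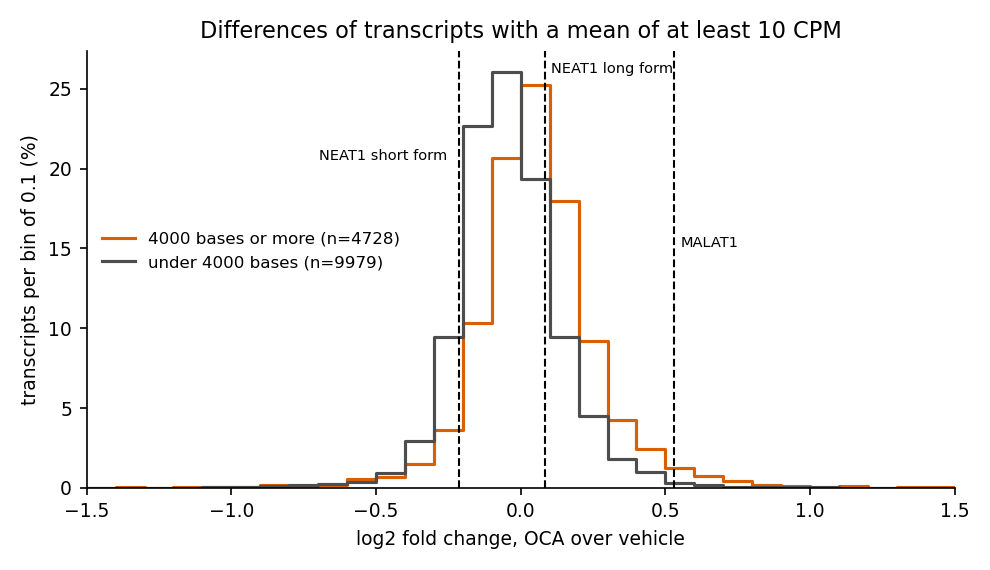
Share of transcripts (%) per bin of log2 fold change, OCA over vehicle, where the mean reached 10 CPM, for transcripts of 4000 bases or more (orange) and shorter ones (grey). Dashed lines mark the members, with MALAT1 at 0.53 to the right of most long transcripts, the long form of NEAT1 at 0.08 near their middle and the short form at -0.21.

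The pattern most like that of MALAT1 over the 13 libraries was that of ENST00000425608 (1886 bases, r = 0.87), and the next was ENST00000619449, the row near MALAT1, at r = 0.85. The pattern most like that of the long form of NEAT1 was that of ENST00000508032 (3028 bases, r = 0.90). These are the highest of 14707 values of r for each member, over transcripts whose mean reached 10 CPM, so they carry no p. The 100 transcripts most like MALAT1 had a median length of 6174 bases and the 100 most like the long form of NEAT1 one of 3494 bases, against 2795 bases over all 14707. All of these values share the 13 libraries and their depths.

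**Figure D5:**
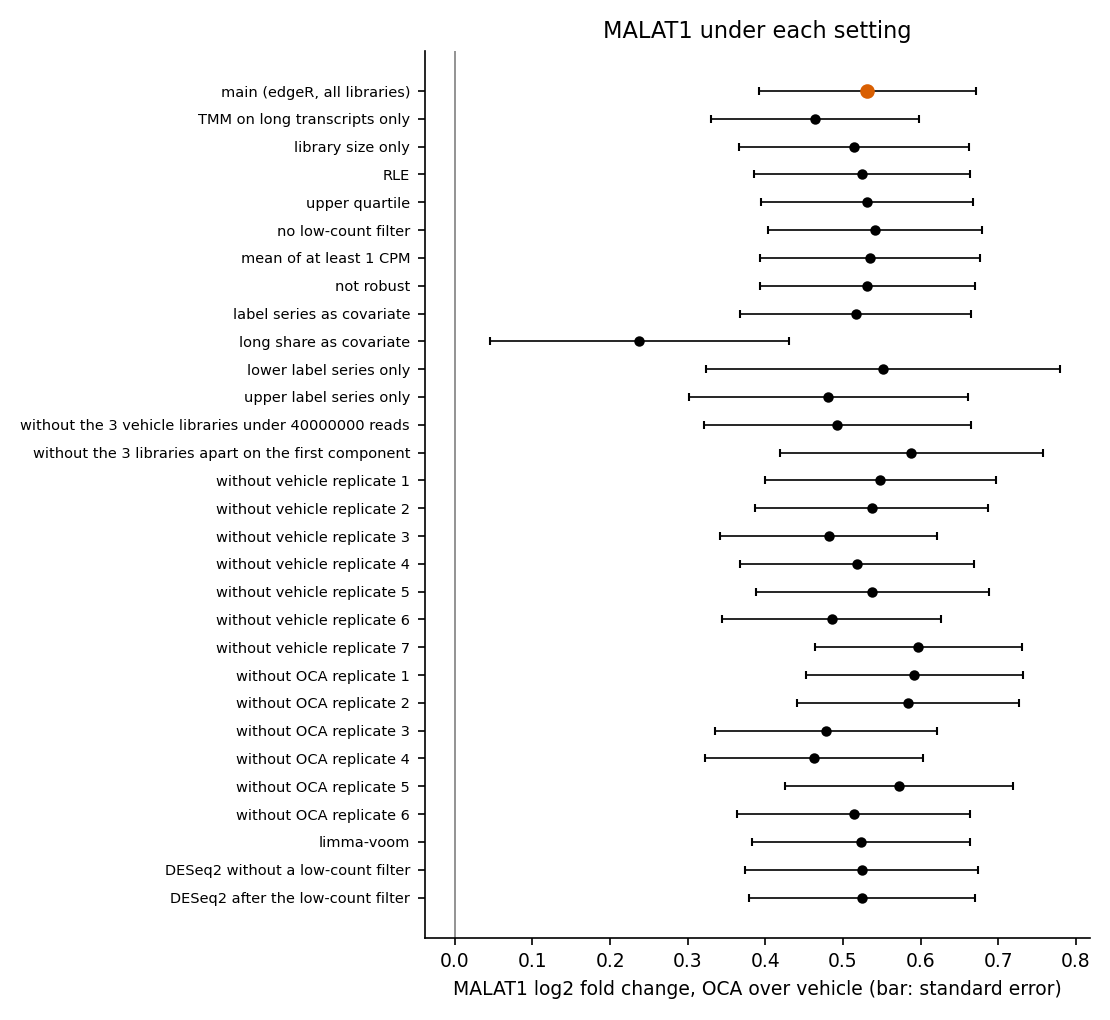
Log2 fold change of the MALAT1 row alone, OCA over vehicle, under 30 settings (the sum with ENST00000619449, at 0.32, is not drawn), with its standard error as a bar. All drawn estimates lie above 0, between 0.46 and 0.60 except for the fit with the long share as covariate, at 0.24.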

How the data were processed

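The deposited tables hold, per the file headers, TPM and estimated counts of reads for every transcript, with its length and effective length. FastQC, STAR, Salmon, DESeq2 and a human genome build are named in the submitters' processing notes, with no tool version. The transcript annotation and the treatment of mouse reads are not given in the sources used here. Lengths and effective lengths were identical in all 13 libraries, so no length offset was fitted. The deposited TPM values were used to compare levels between rows and to form the ratio of the NEAT1 forms. The name tables at hand are of the mouse and hold 0 human gene IDs, so lists of paraspeckle and speckle proteins, other noncoding RNAs and host markers were not analysed.

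Estimated counts were rounded, filtered with edgeR's filterByExpr (minimum count 10, minimum total 15) and scaled by TMM. OCA was compared with vehicle on the whole table by edgeR 4.0.16's robust quasi-likelihood F test in R 4.3.3, two-sided, p-values being adjusted by Benjamini-Hochberg and called under 0.05. The standard error is the log2 fold change divided by the square root of F. DESeq2 1.42.0, limma-voom (limma 3.58.1), other scalings, filters, covariates and subsets of libraries were alternatives. Single values were compared by an exact permutation of group labels, two-sided, and relations by permutation of libraries (100000 resamples, exact below 10 libraries). Relations with the short form, and its ratio, use the 10 libraries with reads on it, because a log2 of 0 is not defined. The edgeR and permutation code was tested on simulated data. The transcripts named besides the members are the one most like MALAT1 and the one most like the long form of NEAT1, plus the adjacent rows chosen after their values were seen. The members and tests were chosen with earlier results of these data known. Libraries were taken as separate animals. If they are not, p-values measure only the spread between samples. Depth was 34015674 to 50596490 reads per library, and intervals and limits for a count of 0 cover counting error or spread between libraries, not the error of sharing reads among transcripts.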

Additional observations from a re-analysis of the deposited data

How the results depend on the processing

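No paired analysis was possible because no number in the labels is shared between the groups. All 30 alternatives kept the MALAT1 log2 fold change above 0 and its adjusted p above the threshold, at 0.24 with the long share as covariate and 0.46 to 0.60 in the rest, except 0.32 when summed with ENST00000619449 (added after seeing the data). Transcripts called went from 0 to 410 with DESeq2 unfiltered, to 12 with DESeq2 after edgeR's filter and to 1 without the 3 libraries apart on the first component, and from 0 to 1 (1 without vehicle replicate 7 or OCA replicate 6) on leaving out single libraries. The NEAT1 long form, at 0.08, turned to -0.16 in the upper label series and -0.028 when both forms were summed before the fit, with -0.0041 to 0.19 on leaving out single libraries. The short form, at -0.21, turned to 0.068 with the long share as covariate and 1.28 in the upper series, with -0.68 to 0.083 on leaving out single libraries, and was -1.74 with limma-voom. The sum of both forms, at -0.13, turned to 0.20 in the upper series and 0.36 for the 4 adjacent rows (added after seeing the data), and ranged from -0.30 to 0.028. The log2 ratio of the forms, at 0.12, turned to -0.66 in the upper series and -0.078 without the 3 libraries apart, and ranged from -0.081 to 0.40. The share of both forms' reads on the long form, over all 13 libraries, was 10.0 percentage points higher in OCA (exact permutation p = 0.424, chosen after seeing the data).

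The share on long transcripts differed by 1.41 points, which missed the adjusted threshold in the lower series (1.28 points), the upper series (1.18) and without the 3 shallow vehicle libraries (1.18), all with fewer libraries. In the upper series the exact permutation p was the smallest that these libraries allow, so that test could not pass. In the lower series the smallest p allowed is 0.0286, with which this measure alone could not pass the adjustment over 3 measures. On leaving out single libraries the difference was 1.18 to 1.60 points. The relation of MALAT1 to the share kept its sign in all 27 alternatives. It missed the adjusted threshold with scaling on long transcripts (r = 0.73), within vehicle (0.59), within OCA (0.44) and in the lower series (0.73). It also missed it without the 3 shallow libraries (0.70) and without the 3 libraries apart (0.78). On leaving out single libraries r was 0.71 to 0.86, and the threshold was missed without vehicle replicate 3 (0.73) and without OCA replicate 3 (0.71). For the long form it turned to -0.30 within vehicle. Relations of the short form within OCA and within a label series were not run, with under 6 libraries holding its reads. The other 8 relations, whose settings were added after seeing the data, passed the adjusted threshold in none. Within vehicle those that turned were MALAT1 with the long form (-0.10), MALAT1 with the short form (-0.10), both forms with each other (-0.28) and the long form with total reads (0.040). Without the 3 shallow libraries they were MALAT1 (-0.30), the short form (-0.45) and the ratio (0.43) with total reads, and the ratio with the share (0.047). MALAT1 with total reads turned to -0.26 within OCA and -0.097 in the lower series. The long form with total reads, at -0.024, turned to 0.68 in the lower series, 0.034 without the 3 libraries apart, 0.14 without the 2 farthest libraries and 0.016 in TPM, with -0.21 to 0.27 on leaving out single libraries. The cause of these changes was not tested.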
